A study of Mus musculus with 2 samples.

Results

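The genes described here encode pacemaker channels and regulators of the heart's conduction system: the channel genes Hcn2, Hcn3 and Hcn4, the transcription factor genes Tbx3, Tbx18, Shox2, Isl1 and Irx3, and the adhesion gene Cntn2. They were chosen by name, and all 9 were found among the 55536 genes of the annotation. The data are total RNA-seq of the hearts of 2 male mice of the strain B6CASTF1/J, an F1 hybrid of a C57BL/6 and a CAST mouse, at an age of 25 days. They form 1 group, and the labels name no treatment, second genotype or second age. Each animal gave 1 library from 300 ng of RNA with synthetic spike-ins added. The labels number the animals apart (03 and 04, biological replicates 1 and 2) but give both the same donor identifier, and they call the tissue heart without naming a chamber. The hearts are called replicate 1 and replicate 2.

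The heartbeat starts in the sinoatrial node, and a current through hyperpolarization-activated, cyclic nucleotide-gated (HCN) channels, opened by hyperpolarization and enhanced by cyclic AMP, contributes to the slow depolarization between beats. From there the impulse passes the atria, the atrioventricular node and the His-Purkinje fibres. The node and the fibres are a small part of the organ, so that a sample of heart RNA comes mostly from working muscle and from cells that are not muscle. In such a bulk sample fewer cells of a type and less RNA per cell cannot be told apart.

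The channel genes are related enough that stretches of their messenger RNAs match each other. The coding bases around the selectivity filter, the glycine-tyrosine-glycine of the pore that HCN channels share with potassium channels, are shown here to let that likeness be seen. They were read from the mm10 genome along the GENCODE M21 annotation, in the sense direction, 5′ to 3′, and the capitals mark the 3 codons of the filter. The stretch has 129 bases and lies in exon 4 of each gene, at chr10:79728899-79729027 (plus strand) for Hcn2, chr9:58855531-58855659 (plus strand) for Hcn4 and chr3:89150946-89151074 (minus strand) for Hcn3.
Hcn2: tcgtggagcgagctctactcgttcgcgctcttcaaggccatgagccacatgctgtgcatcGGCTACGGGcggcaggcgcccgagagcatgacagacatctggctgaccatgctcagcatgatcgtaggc
Hcn4: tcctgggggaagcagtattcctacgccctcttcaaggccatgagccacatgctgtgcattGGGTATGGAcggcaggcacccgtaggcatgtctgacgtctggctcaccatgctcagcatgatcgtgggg
Hcn3: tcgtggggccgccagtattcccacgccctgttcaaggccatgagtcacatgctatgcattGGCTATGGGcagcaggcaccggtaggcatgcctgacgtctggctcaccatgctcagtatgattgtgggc
Hcn2 and Hcn4 had the same base at 105 of the 129 positions (81.4%), Hcn2 and Hcn3 at 100 (77.5%), and Hcn3 and Hcn4 at 112 (86.8%). Over the whole coding sequences, and not only this stretch, the longest run of identical bases was 32 between Hcn2 and Hcn4, 33 between Hcn2 and Hcn3 and 32 between Hcn3 and Hcn4. Over whole transcripts, 5 of the 3190 distinct 31-base words of Hcn2 (0.157%) and 4 of the 6088 of Hcn4 (0.0657%) also occurred in another gene, in each case another HCN gene. Nearly all of the sequence of Hcn2 and Hcn4 was thus their own at this word length. Of the 4180 words of Hcn3, 686 (16.4%) also occurred in Hcn2, Hcn4 or Pklr, a gene whose exons overlap those of Hcn3.

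Levels were read as TPM, a measure of transcript abundance that divides estimated reads by the length a read can come from and scales each library to the same total. Among the channel genes, Hcn2 (ENSMUSG00000020331.9, chr10:79716634-79736108, plus strand), a channel of ventricular muscle, the brain and to a lesser extent the node, had 789 reads in replicate 1 and 1108 in replicate 2. That corresponded to 7.79 TPM in replicate 1, with a 95% counting interval of 7.26 to 8.35, and 10.2 TPM (9.59 to 10.8) in replicate 2. The libraries carried no molecular identifiers named in the labels, and reads copied from 1 molecule are not independent, so the intervals cover counting error alone. Hcn4 (ENSMUSG00000032338.9, chr9:58823412-58863175, plus strand), the main HCN channel of the mouse sinoatrial node, had 377 reads in replicate 1 and 531 in replicate 2. Its level was 1.92 TPM (1.73 to 2.12) in replicate 1 and 2.51 TPM (2.30 to 2.73) in replicate 2. Both genes were lower in replicate 1, without overlap of the intervals.

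Hcn3 (ENSMUSG00000028051.10, chr3:89146074-89160196, minus strand), which in the mouse has been described in ventricular muscle, stood near the limit of detection. It had 5 reads in replicate 1 and 11 in replicate 2, beside a floor of 3 reads set here for a count of 0. Its level was 0.27 TPM (0.0877 to 0.63) in replicate 1 and 0.22 TPM (0.11 to 0.394) in replicate 2, so the intervals overlapped widely. The reads leaned towards replicate 2 and the TPM towards replicate 1, and the deposited effective length was 568 bases in replicate 1 and 1434 in replicate 2. No direction can be given for Hcn3.

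Hcn2 was the highest of the 3 channel genes in both hearts, and its proportion to Hcn4 was nearly the same in each. Per unit of length Hcn2 stood 4.07-fold above Hcn4 in replicate 1 (log2 ratio 2.02, 95% counting interval 1.85 to 2.21) and 4.06-fold in replicate 2 (2.02, 1.87 to 2.17). Of the summed TPM of Hcn2, Hcn3 and Hcn4, Hcn2 took 78.1% in replicate 1 and 78.9% in replicate 2, Hcn4 took 19.2% in replicate 1 and 19.4% in replicate 2, and Hcn3 took 2.7% in replicate 1 and 1.7% in replicate 2. A second deposited quantification gave Hcn2 78.5% in replicate 1 and 77.9% in replicate 2, and Hcn4 18.4% in replicate 1 and 18.8% in replicate 2. The order of Hcn2 before Hcn4 before Hcn3 held in all 4 estimates.

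**Figure D1:**
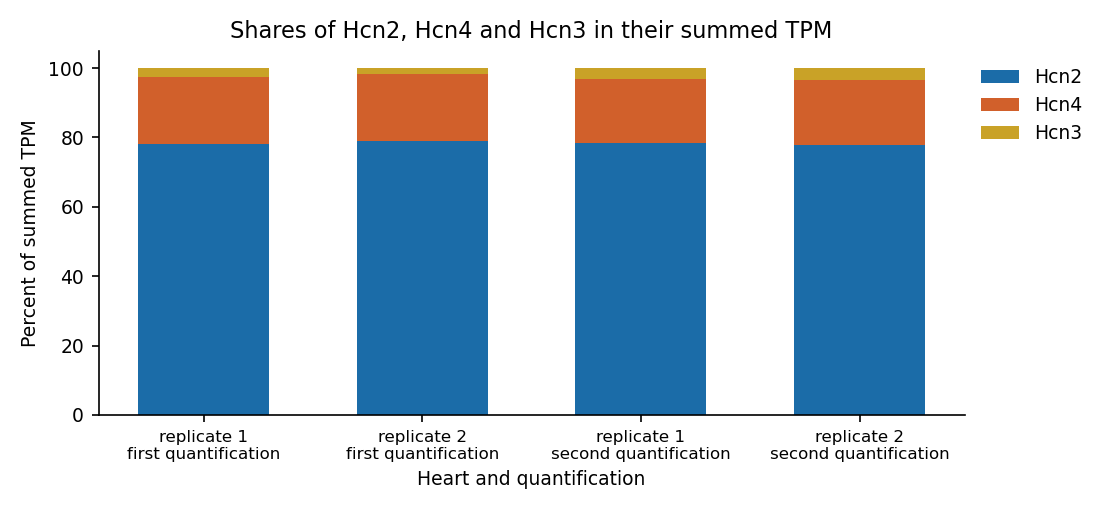
Percent of the summed TPM of Hcn2, Hcn4 and Hcn3 taken by each gene (stacked bars, y axis in percent), for replicates 1 and 2 in the first and in the second quantification. Hcn2 fills between 77.9% and 78.9% of every bar and Hcn4 between 18.4% and 19.4%.

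Among the regulators, Irx3 (ENSMUSG00000031734.13, chr8:91798525-91802067, minus strand), a homeodomain factor of the mouse ventricular conduction system that is needed for rapid conduction in the His-Purkinje fibres, had the highest level of the 9 genes. It had 678 reads and 7.88 TPM (7.30 to 8.50) in replicate 1, and 1235 reads and 13.3 TPM (12.6 to 14.1) in replicate 2. Replicate 1 was the lower, by far more than counting error. Tbx3 (ENSMUSG00000018604.18, chr5:119670669-119684724, plus strand), a T-box repressor that keeps the programme of working muscle off in the nodes, had 524 reads in replicate 1 and 433 in replicate 2. Its level was 3.53 TPM (3.23 to 3.85) in replicate 1 and 3.34 TPM (3.03 to 3.67) in replicate 2, with overlapping intervals.

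Tbx18 (ENSMUSG00000032419.8, chr9:87702800-87731260, minus strand), a T-box factor of the embryonic sinus horns that is also expressed in the epicardium and in pericytes, had 251 reads in replicate 1 and 255 in replicate 2. The level was 2.21 TPM (1.95 to 2.50) in replicate 1 and 1.58 TPM (1.39 to 1.79) in replicate 2. The TPM of Tbx18 was thus the higher in replicate 1 at nearly equal reads. The authors' deposited TPM intervals, which were wider, overlapped for Tbx18, at 1.61 to 3.17 in replicate 1 and 1.42 to 2.29 in replicate 2. Shox2 (ENSMUSG00000027833.16, chr3:66971727-66981771, minus strand), a homeodomain factor that restrains Nkx2-5 in the developing node, had 45 reads in replicate 1 and 35 in replicate 2. It stood at 0.82 TPM (0.598 to 1.10) in replicate 1 and 0.37 TPM (0.258 to 0.515) in replicate 2, and like Tbx18 it was the higher by TPM in replicate 1, with deposited intervals that overlapped (0.513 to 1.45 in replicate 1 and 0.347 to 0.937 in replicate 2).

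Isl1 (ENSMUSG00000042258.13, chr13:116298281-116309689, minus strand), a LIM-homeodomain factor of cardiac progenitors, of the node and of autonomic neurons, had 11 reads in replicate 1 and 4 in replicate 2. That is 0.37 TPM (0.185 to 0.662) in replicate 1 and 0.17 TPM (0.0463 to 0.435) in replicate 2, and the intervals overlapped. Isl1 and Hcn3 were the only genes of the 9 that had fewer than 20 reads over both hearts. The last gene, Cntn2 (ENSMUSG00000053024.14, chr1:132509427-132543256, minus strand), encodes contactin-2, a membrane-anchored adhesion molecule that marks Purkinje cells in the mouse heart. It had 263 reads in replicate 1 and 291 in replicate 2, at 2.07 TPM (1.83 to 2.34) in replicate 1 and 1.40 TPM (1.24 to 1.57) in replicate 2. Cntn2 had the higher TPM in the heart with fewer reads of it, and its deposited intervals overlapped too (1.71 to 3.39 in replicate 1 and 1.30 to 2.37 in replicate 2).

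**Figure D2:**
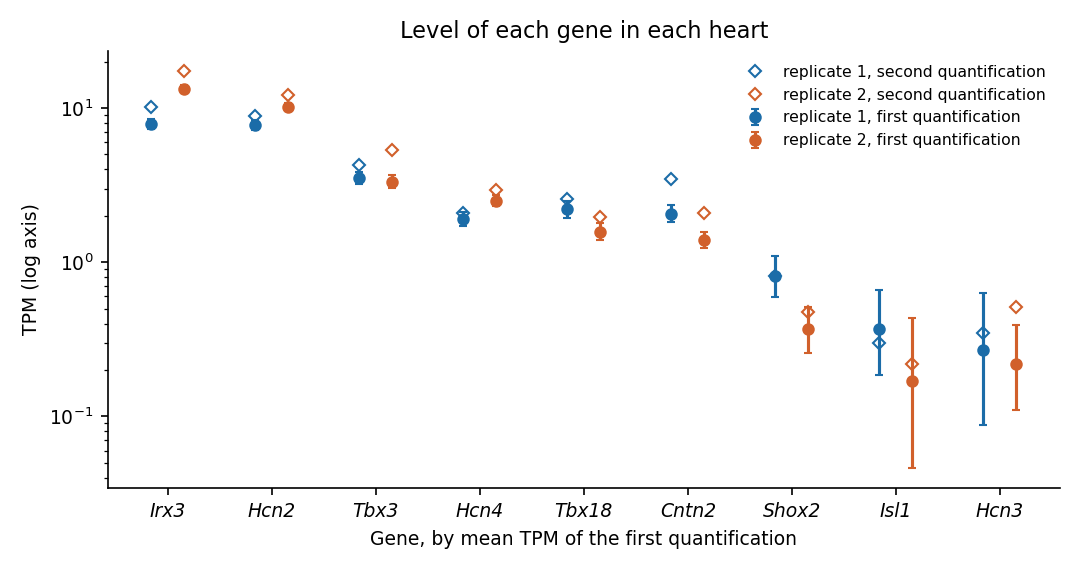
TPM of each gene (log axis) in replicate 1 and replicate 2. Filled points are the first quantification with 95% counting intervals and open diamonds the second; the genes run from Irx3, at 7.88 TPM in replicate 1 and 13.3 TPM in replicate 2, down to Hcn3, at 0.27 TPM in replicate 1 and 0.22 TPM in replicate 2.

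In order of mean level (± SD over the 2 hearts) the genes were Irx3 at 10.6 ± 3.85 TPM, Hcn2 at 8.99 ± 1.69, Tbx3 at 3.44 ± 0.134, Hcn4 at 2.22 ± 0.417, Tbx18 at 1.90 ± 0.446, Cntn2 at 1.74 ± 0.474, Shox2 at 0.595 ± 0.318, Isl1 at 0.27 ± 0.141 and Hcn3 at 0.245 ± 0.0354. Of the 8 neighbouring pairs, 3 were apart beyond counting error in both hearts. Hcn2 stood above Tbx3 by a log2 of 1.14 (0.98 to 1.30) in replicate 1 and 1.61 (1.44 to 1.77) in replicate 2. Tbx3 stood above Hcn4 by 0.88 (0.69 to 1.08) in replicate 1 and 0.41 (0.23 to 0.60) in replicate 2. Cntn2 stood above Shox2 by 1.34 (0.88 to 1.83) in replicate 1 and 1.94 (1.43 to 2.49) in replicate 2. By these estimates the genes formed steps: Irx3 with Hcn2, then Tbx3, then Hcn4, Tbx18 and Cntn2, then Shox2, Isl1 and Hcn3. Irx3 and Hcn2 were not separated in replicate 1 (log2 0.02, -0.13 to 0.17) but were in replicate 2 (0.39, 0.27 to 0.51). Hcn4 was not separated from Tbx18 in replicate 1 (-0.20, -0.44 to 0.03) and stood above it in replicate 2 (0.66, 0.45 to 0.89). Shox2 stood above Isl1 in replicate 1 (1.15, 0.18 to 2.25) and was not separated from it in replicate 2 (1.08, -0.40 to 3.04). The step from Tbx3 to Hcn4 was lost in both-heart counting when the length of the longest coding transcript was used for each gene, an alternative added after seeing the data. That length also set Tbx18 above Cntn2 and Shox2 above Isl1 in both hearts, and the second quantification set Irx3 above Hcn2 in both. In the second quantification Cntn2 ranked above Hcn4 and Hcn3 above Isl1 by mean TPM. The order within the steps therefore depended on how length and transcripts were handled.

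Set against the whole transcriptome these were low to middling levels. Of the 9 genes, 6 (Irx3, Hcn2, Tbx3, Hcn4, Tbx18 and Cntn2) reached 1 TPM in both hearts, as did 11819 of the 55536 genes. All 9 genes are protein-coding, and of the 21951 protein-coding genes 10901 were at that level. Those 10901 had a median of 8.13 TPM, which Irx3 and Hcn2 exceeded on average and the other 7 did not. Together the 9 genes took 0.00769% of gene reads in replicate 1 and 0.0096% in replicate 2, of 38253821 gene reads in replicate 1 and 40655101 in replicate 2.

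How reads were divided among the transcripts of a gene bore on several of these TPM. The leading transcript by abundance was the same in both hearts for all 9 genes in the first quantification, and the same in both quantifications for 7, the exceptions being Tbx3 and Cntn2. Hcn4 has a single annotated transcript, Hcn2-202 took 100% of Hcn2 in both hearts, and Irx3-202 took 86.6% of Irx3 in replicate 1 and 92.2% in replicate 2. Hcn2, Hcn4, Shox2 and Irx3 had all of their reads on transcripts annotated as protein-coding. Tbx3 was divided among 3 coding transcripts. Tbx3-203 took 41.1% in replicate 1 and 38.2% in replicate 2, Tbx3-201 took 24.3% in replicate 1 and 24.4% in replicate 2, and Tbx3-202 took 28.4% in replicate 1 and 10.6% in replicate 2. Its coding transcripts held 98.3% of its reads in replicate 1 and 94.1% in replicate 2, but 93.8% of its TPM in replicate 1 and 73.1% in replicate 2. In replicate 2 the noncoding Tbx3-204, of 725 bases, had 8.66 reads and 11.8% of the abundance. Tbx3-205, also noncoding and of 485 bases, had 5.26 reads and 11.6% there. The second quantification put 4.00% of Tbx3 on Tbx3-204 in replicate 1 and 40.5% in replicate 2.

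In Tbx18, Shox2 and Cntn2 a few reads on a short transcript made up a large part of the TPM in replicate 1. Tbx18-202, a noncoding transcript of 423 bases, had 6.06 reads and 25.9% of the abundance of Tbx18 in replicate 1, and no reads in replicate 2. Cntn2-206, of 460 bases, had 10.5 reads and 43.1% in replicate 1, and 2.23 reads and 12.5% in replicate 2. Shox2-205, of 414 bases, had 3.41 reads and 40.5% in replicate 1, and no reads in replicate 2. The mean effective length of Cntn2 was accordingly 3891 bases in replicate 1 and 5894 in replicate 2. The higher TPM of these 3 genes in replicate 1 therefore came with lengths that differed and not with more reads beyond counting error.

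In Hcn3 and Isl1 the share on coding transcripts differed widely between the hearts. Hcn3-201, the only coding transcript of Hcn3, had 0 reads in replicate 1 and 8.04 reads (73.1% of the gene) in replicate 2. The leading transcript of Hcn3 was the noncoding Hcn3-204, with 86.0% of abundance in replicate 1 and 73.1% in replicate 2. Isl1 had 4.31 of its reads (39.2%) on coding transcripts in replicate 1 and 0 in replicate 2, and led with the retained-intron transcript Isl1-203. The second quantification divided the same few reads otherwise, with 28.9% of Hcn3 in replicate 1 and 57.8% in replicate 2, and 73.5% of Isl1 in replicate 1 and 30.3% in replicate 2, on coding transcripts. The coding share of these low genes was therefore uncertain.

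**Figure D3:**
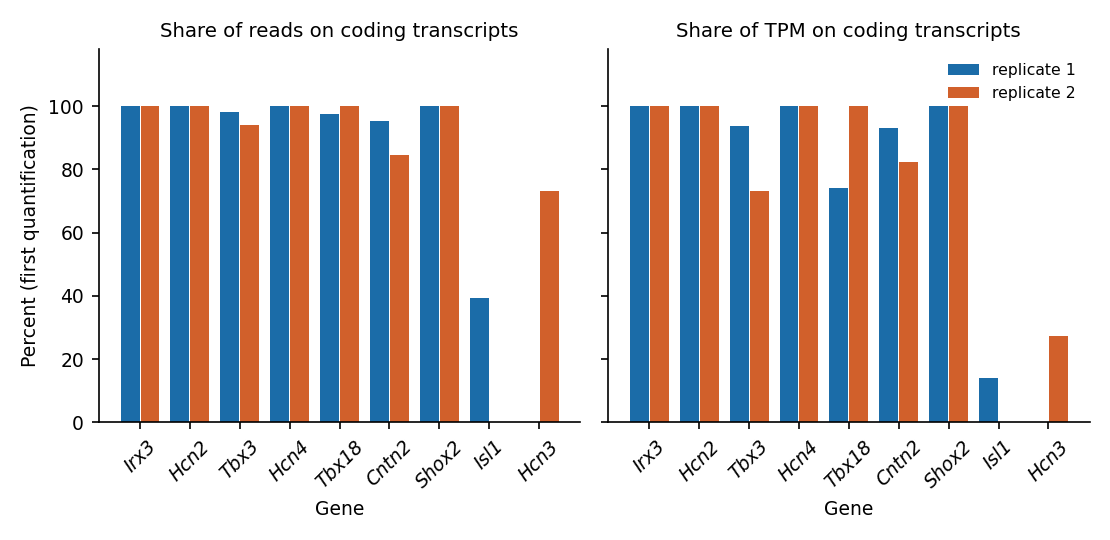
Percent of the reads (left) and of the TPM (right) of each gene that the first quantification placed on transcripts annotated as protein-coding, in replicate 1 and replicate 2. Hcn3 in replicate 1 and Isl1 in replicate 2 have no bar because the share is 0%.

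Some exon sequence was shared with genes on the opposite strand, and the sources used here do not say whether counting used strand. Exons of 5 of the 9 genes overlapped another gene. For Hcn3, 711 of its 4154 exon bases (17.1%) lay in exons of Pklr, which had 0 reads in both hearts. For Tbx18, 970 bases (20.6%) lay in D030062O11Rik, which had 1 read in replicate 1 and 2 in replicate 2. For Irx3, 124 bases (4.49%) lay in the antisense gene Irx3os, which had 9 reads in replicate 1 and 19 in replicate 2. Pklr and D030062O11Rik were thus at or near 0, and Irx3os was low beside Irx3. Tbx3 shared 115 bases (1.74%) with Tbx3os1, at 15 reads in replicate 1 and 22 in replicate 2. Shox2 shared 153 bases (4.62%) with Rsrc1, which at 294 reads in replicate 1 and 280 in replicate 2 had more reads than Shox2 itself. Hcn2, Hcn4, Isl1 and Cntn2 overlapped no other gene. Irx3 also shared 6.08% of its 31-base words with other genes, among them its relatives Irx5 and Irx6.

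The hearts were then compared gene by gene, as log2 of replicate 1 over replicate 2 of reads scaled by TMM factors, with exact binomial 95% intervals. With 1 library per animal such a ratio describes these 2 animals, and no p-value was given. Of the 9 genes, 7 passed a filter of 20 reads over both hearts. Of the 7, 4 differed beyond counting error, where the same held for 29.2% of the 15727 genes past the filter. It held for 24.5% of the genes within the range of summed reads of the 7. Hcn2, Hcn4 and Irx3 were lower in replicate 1, the direction of 13.9% of all genes. Tbx3 was higher in replicate 1, the direction of 15.3% of all genes. Where spike-ins set the scale Tbx18 was also higher in replicate 1, as were 5646 of the 15727 genes on that scale. None of the 7 reached a 2-fold difference, against 3.27% of all genes.

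Irx3 had the largest difference past the filter, at -0.72 (-0.86 to -0.58), or 1.65-fold lower in replicate 1. Hcn2 and Hcn4 were lower in replicate 1 by nearly the same amount, with log2 ratios of -0.34 (-0.48 to -0.21) and -0.35 (-0.54 to -0.16), or 1.27-fold each. Tbx3 was 1.34-fold higher in replicate 1 (0.42, 0.23 to 0.61). For Tbx3 the TPM moved less, with a log2 ratio of 0.08. Its deposited effective length was 4540 bases in replicate 1 and 3683 in replicate 2. In the second quantification the TPM of Tbx3 was lower in replicate 1 (4.3 TPM) than in replicate 2 (5.31 TPM). Tbx18 (0.12, -0.14 to 0.38), Cntn2 (0.00, -0.25 to 0.24) and Shox2 (0.51, -0.16 to 1.19) showed no difference beyond counting error. Isl1 (1.60, -0.15 to 3.71) and Hcn3 (-0.99, -2.87 to 0.65) had intervals that included no difference and, on 1 side, a several-fold one: higher in replicate 1 for Isl1 and lower in replicate 1 for Hcn3.

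When the intervals also took in the spread between the hearts over all genes, a coefficient of variation of 0.112, Irx3 was the only one of the 7 still apart (-1.19 to -0.25). This held for 5.85% of all genes. The widened intervals reached from -0.81 to 0.12 for Hcn2, from -0.83 to 0.14 for Hcn4 and from -0.06 to 0.90 for Tbx3. Of the 4 differences beyond counting error, 1 was thus also beyond the common spread between these hearts.

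**Figure D4:**
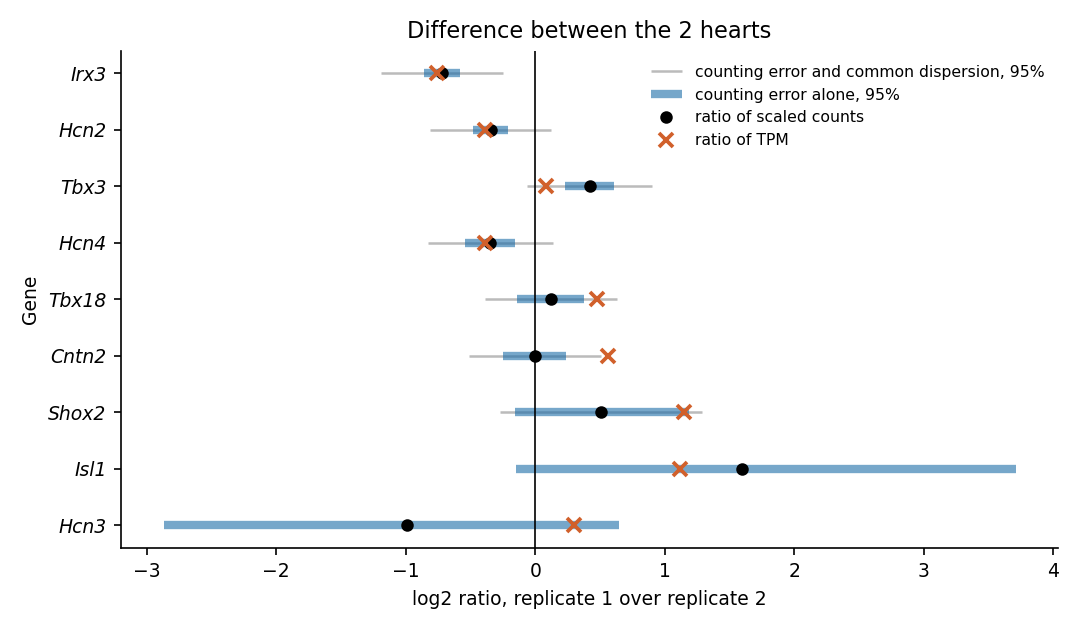
The log2 ratio of replicate 1 over replicate 2 for each gene, with negative values lower in replicate 1. Black points are scaled reads, thick bars 95% counting intervals, thin lines intervals widened by the common dispersion (genes past the filter) and crosses the ratio of TPM; Irx3, at -0.72, is the gene whose thin line stays clear of 0.

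**Figure D5:**
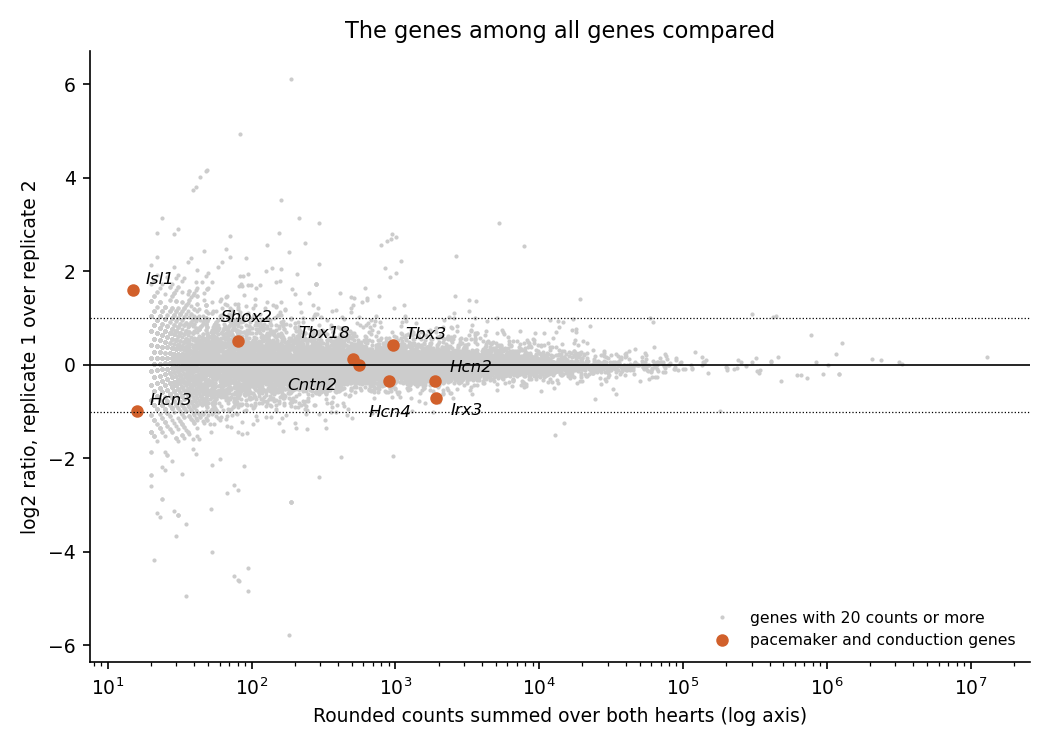
The log2 ratio of replicate 1 over replicate 2 (y axis) against reads summed over both hearts (log x axis) for the 15727 genes past the filter (grey) and the 9 pacemaker and conduction genes (orange). Dotted lines mark 2-fold; Isl1 lies above the upper one, Hcn3 is next to the lower one, and the other genes lie between them.

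Markers of cell types also differed between the hearts beyond counting error, as did 29.2% of all genes. Beyond the widened interval, which held for 5.85% of all genes, 0 atrial, ventricular, epicardial, pericyte, fibroblast or neuron markers were apart, and 2 Schwann cell, 4 adipocyte and 1 skeletal muscle marker were. Only 2 of the 8 neuron and 4 of the 6 skeletal muscle markers passed the filter and could be called, while all markers of the other cell types did. Summed TPM of 5 atrial markers was 1673 in replicate 1 and 1571 in replicate 2, with 4 of the 5 higher in replicate 1 beyond counting error. That of 5 ventricular markers was 9861 in replicate 1 and 10949 in replicate 2, with 3 of the 5 lower in replicate 1. Markers of both chambers were thus present, and the summed TPM of the ventricular ones was somewhat lower in replicate 1. Markers of pericytes stood at 195.7 TPM in replicate 1 and 213.3 TPM in replicate 2, with 1 of 6 higher and 4 lower in replicate 1. Those of epicardium, where Tbx18 is also expressed, stood at 36.5 TPM in replicate 1 and 31.1 TPM in replicate 2, with 2 of 5 higher in replicate 1. Fibroblast markers summed to 415.3 TPM in replicate 1 and 378.1 TPM in replicate 2 (4 of 6 higher in replicate 1). Schwann cell markers summed to 18.4 TPM in replicate 1 and 9.28 TPM in replicate 2 (5 of 6 higher in replicate 1). Adipocyte markers summed to 221.3 TPM in replicate 1 and 31.3 TPM in replicate 2 (4 of 4 higher in replicate 1), the largest difference among these lists. Neuron markers were low, at 4.15 TPM in replicate 1 and 3.78 TPM in replicate 2. Genes used as skeletal muscle markers summed to 1748 TPM in replicate 1 and 2036 TPM in replicate 2, almost all of it Ckm and Acta1, which heart muscle also expresses, and Myog was at 0 reads in both. The part of these differences in those of Irx3, Hcn2, Hcn4 and Tbx3 was not tested.

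The 9 genes were also set beside 34 other genes of the conduction system, in lists of channels, transcription factors, markers and HCN channel partners. Of the 34, 25 reached 1 TPM in both hearts and 32 passed the filter. Of the 32, 6 were higher and 9 lower in replicate 1 beyond counting error, against 15.3% and 13.9% of all genes in these directions, the shares to read each list's counts against. The widened interval left 4 apart, against 5.85% of all genes, among them Vsnl1 and Bmp4 (Bmp4 named after its values were seen). Among the 12 channel and connexin genes, 9 reached 1 TPM, 0 of 11 were higher and 3 lower in replicate 1, with a median log2 ratio of -0.08 where that of all genes was 0.00. Among the highest of them was Kcnj3, a subunit of the acetylcholine-gated potassium channel, at 18.4 TPM in replicate 1 and 19.0 TPM in replicate 2. The lowest was Gjd3, a connexin of the mouse atrioventricular node, at 0.25 TPM in replicate 1 and 0.39 TPM in replicate 2.

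Of the 10 other transcription factor genes 9 reached 1 TPM, and 2 were higher and 5 lower in replicate 1, with a median log2 ratio of -0.11. Nkx2-5, which Shox2 opposes in the node, was at 30.7 TPM in replicate 1 and 32.9 TPM in replicate 2, far above Shox2. Tbx20, a T-box factor of all heart muscle, was at 28.0 TPM in replicate 1 and 31.8 TPM in replicate 2. Relatives of the 9 genes within this list were also compared by length. Tbx3 stood 2.18-fold above Tbx2, a T-box repressor of the atrioventricular canal, in replicate 1 and 1.5-fold in replicate 2. Irx3 stood 2.56-fold above Irx5, a repressor that helps shape the repolarization gradient of the mouse ventricle, in replicate 1 and 3.14-fold in replicate 2. Against Irx4, the ventricular family member, Irx3 was not separated in replicate 1 (1.09-fold, log2 ratio 0.12, -0.04 to 0.29) and stood 1.43-fold above it in replicate 2 (0.52, 0.39 to 0.65). Irx5 was itself lower in replicate 1 (log2 ratio -0.42, -0.67 to -0.18), as was Irx4 (-0.30, -0.46 to -0.15). Irx3, Irx4 and Irx5 were thus all lower in replicate 1 beyond counting error after TMM scaling, and of the 3 Irx3 alone beyond the widened interval.

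Of the 6 other marker genes 4 reached 1 TPM, and 3 were higher and 0 lower in replicate 1, with a median log2 ratio of 0.21. Smoc2, a matrix protein found enriched in the mouse node, led at 16.3 TPM in replicate 1 and 14.8 TPM in replicate 2. Rgs6, which curbs muscarinic signalling in nodal cells, followed at 4.76 TPM in replicate 1 and 4.52 TPM in replicate 2. Vsnl1, a calcium sensor, was lowest at 0.39 TPM in replicate 1 and 0.16 TPM in replicate 2. Of 6 genes for partners and regulators of HCN channels 3 reached 1 TPM, and of the 5 past the filter 1 was higher and 1 lower in replicate 1, with a median log2 ratio of 0.06. Cav3, the muscle caveolin, was at 37.1 TPM in replicate 1 and 43.0 TPM in replicate 2. Flna, the actin crosslinker filamin A, was at 34.5 TPM in replicate 1 and 32.8 TPM in replicate 2. Kcne2, a small channel subunit reported to associate with HCN channels, had 0 reads in both hearts, which allows up to 0.0784 CPM (reads as a share of all gene reads of the library) in replicate 1 and 0.0738 CPM in replicate 2.

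Sequence upstream of the start was available from RefSeq (GRCm38.p6) for 7 of the 9 genes, not for Hcn3 and Tbx3. The 250 bases before the start are shown for Hcn2 and Hcn4, the channel genes among these 7. They lie at chr10:79716384-79716633 (Hcn2, plus strand) and chr9:58822699-58822948 (Hcn4, plus strand). The RefSeq start of Hcn4 lies upstream of the GENCODE start given for the gene above, so that its window does not adjoin that start, while that of Hcn2 does. The windows of Irx3 (chr8:91801655-91801904) and Cntn2 (chr1:132542941-132543190), not shown but counted below, lie inside the GENCODE spans given above. The 7 windows are thus not all before the starts given above. The capitals mark the T-box core AGGTGT, read here on the opposite strand.
Hcn2 upstream: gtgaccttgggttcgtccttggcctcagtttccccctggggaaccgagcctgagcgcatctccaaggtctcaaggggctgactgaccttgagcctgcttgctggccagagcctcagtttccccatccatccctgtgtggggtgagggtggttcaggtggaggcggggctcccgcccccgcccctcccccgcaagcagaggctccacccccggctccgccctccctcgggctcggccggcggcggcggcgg
Hcn4 upstream: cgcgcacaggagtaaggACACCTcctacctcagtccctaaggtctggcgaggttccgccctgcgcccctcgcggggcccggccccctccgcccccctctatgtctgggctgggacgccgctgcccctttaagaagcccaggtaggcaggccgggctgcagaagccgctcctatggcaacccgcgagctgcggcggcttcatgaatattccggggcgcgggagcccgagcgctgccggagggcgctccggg
Both were rich in G and C, at 70.4% for Hcn2 and 71.2% for Hcn4 against a median of 52.4% over 32851 promoters. They held 16 CG pairs (Hcn2) and 25 CG pairs (Hcn4) against a median of 6. This was not particular to the channel genes, since all 7 windows lay above both medians. The share of G and C ran from 54% (Tbx18) to 71.2% (Hcn4 and Isl1), and CG pairs from 10 (Cntn2) to 33 (Isl1). The T-box core AGGTGT, searched on both strands, occurred in 1 of the 7 upstream sequences, that of Hcn4, and in 11.8% of all promoters. The longer T-box site AGGTGTGA, which contains the core, was in 0 of 7 and in 1.12% of all. The homeodomain site TAATTA was in 0 of 7 and in 4.84% of all, and the TATA box TATAAA in 1 of 7, that of Shox2, and in 12.4% of all. A match of letters is a description of the window and not a site of binding.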

How the data were processed

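Total RNA of 2 hearts was sequenced as 1 library each. Estimated counts (called reads in the text) and TPM per gene were deposited by the authors, with effective lengths, as was the percent of a gene's abundance in each of its transcripts. The posterior SD of each count and the interval bounds of each TPM, a signal per gene, were also deposited; the SD was at most 0.05 counts for the 9 genes. A second quantification gives estimated counts and TPM per transcript, summed here per gene. The deposited text files name the assembly mm10 and annotation GENCODE M21. Column names are those of RSEM and kallisto; as to tools, versions and the use of strand, nothing was given in the sources used here.

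Counts were rounded to whole numbers. The 26248 transfer RNA rows (3.00 and 1.85 counts in replicates 1 and 2) and 97 spike-in rows (0.505% and 0.577% of counts) were left out of library sizes. Counts were scaled with TMM factors (edgeR 4.0.16, R 4.3.3; DESeq2 1.42.0 for an alternative), and genes with 20 counts over both hearts were kept. Ratios have exact binomial and levels exact Poisson 95% intervals. The widened interval adds edgeR's common dispersion (intercept alone) as a normal approximation. A count of 0 was set at 3. Sequence words of 31 bases were compared over annotated transcripts. Steps were tested on simulated data. Python 3.11.15 was used with scipy 1.17.1, numpy 2.4.6, pandas 2.3.3 and matplotlib 3.10.9.

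All 9 genes are named. From each conduction list the 2 highest and the lowest by mean TPM are named, with any at 0 counts in both hearts, and relatives of the 9 genes were added later. Some genes that this rule names are not reported here. The genes and lists were chosen with earlier results of these data known. Separate animals are not fully established by the labels, so the spread may be technical. The alternatives were scaling, filter, quantification, estimate, gene length, error model, threshold and each heart alone.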

Additional observations from a re-analysis of the deposited data

How the results depend on the processing

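Across library size, TMM, DESeq2 factors and the second quantification, 4 of the 9 genes differed between the hearts beyond counting error; scaling by spike-ins gave 5 (Tbx18 added, log2 0.26) and the widened interval 1, with Hcn2 (-0.34), Hcn4 (-0.35) and Tbx3 (0.42) no longer apart. Spike-ins shifted the median of all genes by 0.14. Over all genes 4592 differed beyond counting error, or 6285 with spike-in scaling and 920 with the widened interval. A 2-fold difference held for 514, or 4858 with no filter and 157 at a mean of 1 CPM. Of the calls, 47.5% were higher in replicate 2, against 67.6% by library size, 10.2% by spike-ins and 36.2% with the widened interval. Neighbouring genes apart beyond counting error numbered 3 over both hearts and 4 to 5 with a heart left out (5 without replicate 1). A pair had to be apart in every heart used, so leaving a heart out could not lower this number. TPM rescaled to protein-coding nuclear genes were 2.65 (replicate 1) and 2.72 (replicate 2) times as high. The second quantification gave 3 of the 9 mean TPM values beyond the spread between hearts (Hcn3 0.43, Tbx3 4.81 and Cntn2 2.78). With the length of the longest coding transcript the mean TPM of Hcn3 was 0.0601, of Isl1 0.0931, of Cntn2 1.15 and of Tbx3 2.9, and the posterior mean gave Hcn3 0.42 and Tbx3 3.7. The 4 called differences in reads kept their direction under the scalings and the second quantification. By TPM, Tbx3 was at 4.3 in replicate 1 and 5.31 in replicate 2 in the second quantification, and Hcn3 at 0.348 in replicate 1 and 0.512 in replicate 2, both the other way from the first. No paired analysis was possible because both hearts belong to 1 group. Depth limits Isl1 and Hcn3, with 15 and 16 counts.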
